A study of Mus musculus with 2 samples.

Results

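The proteasome is described here through 47 genes of the mouse whose symbols begin with Psma, Psmb, Psmc, Psmd, Psme, Psmf or Psmg followed by a number and that had long reads in at least 1 of 2 adrenal gland libraries. These 47 genes stand among 18580 annotated genes with reads. Replicate 1 held reads of 46 of them and replicate 2 of all 47. Reads were summed over every transcript model of a gene. Psmb11, the catalytic subunit of the thymus proteasome, matched the name pattern but had no reads in either library and is not counted.

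The proteasome is the large protease that degrades proteins tagged with ubiquitin. Its 20S core is a barrel of stacked rings, in which the alpha rings form the gated entrance and the beta rings carry the proteolytic sites inside. The 19S particle caps the core, and in it ubiquitin receptors bind the substrate, a deubiquitinase removes the tag and a ring of ATPases unfolds the chain and feeds it into the core. In immune cells and under interferon, the catalytic beta subunits can be exchanged for immunoproteasome subunits, which change the peptides that are made.

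The study measured long-read RNA sequencing of whole adrenal gland from 10-day-old males of the hybrid strain B6CASTF1/J, with no treatment named. The 2 libraries form 1 group, so the only comparison is between replicates, and its p-values cover the counting error of the reads of these 2 libraries, not the spread between animals or conditions. The labels give both libraries 1 donor identifier and name the animal of replicate 2 in more than 1 way, so whether they come from separate animals is unclear. Replicate 1 held 971827 reads, of which 927914 were on annotated genes, and replicate 2 held 1407511, of which 1303420 were on annotated genes.

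Levels are given as CPM, the reads of a gene per 1000000 reads on annotated genes, with exact Poisson intervals at 95% that cover counting error only. A long read stands for 1 transcript copy, so CPM is not divided by length. Whether a library favours transcripts of some lengths was not tested, and the libraries differ by length as described below. Levels of different genes are therefore set side by side as read, with this limit. Markers of the adrenal cortex summed to 22370 and 15828 CPM in replicates 1 and 2, and markers of the chromaffin medulla to 10764 and 5345 CPM, so the labelled tissue was present in both. Markers of liver were also high, at 8371 and 24027 CPM, as were markers of brown fat, at 6190 and 5941 CPM. In bulk tissue, fewer cells of a type and less RNA per cell cannot be told apart.

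Proteasome genes together took 7492 reads of replicate 1 and 9945 of replicate 2, or 0.807% and 0.763% of reads on annotated genes. Their summed level was 7852 ± 314 CPM (SD, n = 2). At least 10 CPM was reached in both libraries by 43 of the 47 genes, against 8007 of the 18580 genes with reads. At least 100 CPM was reached in both by 31 members, and no count over all genes is given at that level. The median member stood at 174 CPM, against a median of 9.84 CPM over all genes with reads. Psmd4, a ubiquitin receptor of the 19S base, had the highest mean of the members at 404 ± 39.2 CPM, in the 97.9th percentile of all genes with reads.

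**Figure D1:**
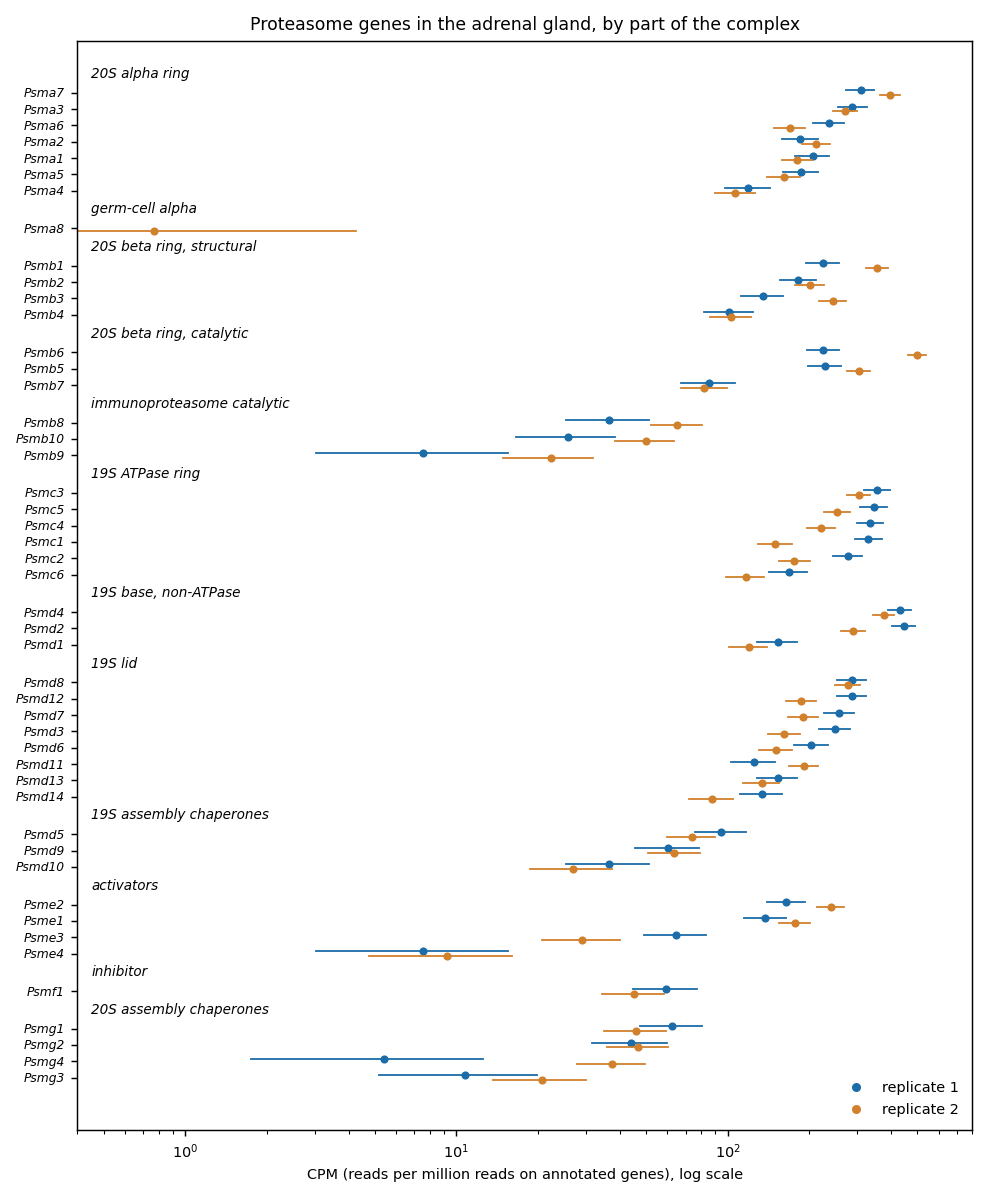
CPM of the 47 proteasome genes on a log axis, grouped by part of the complex and ordered within it by mean level. Points are the 2 replicates and lines their exact 95% Poisson intervals. Standard 20S and 19S subunits lie between 82.1 and 499 CPM, while immunoproteasome subunits, assembly chaperones, Psme3, Psme4 and Psmf1 lie below 100 CPM. Psma8 had no reads in replicate 1.

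Some of the results below turn on the structure of the transcripts, and the sequences concerned are given first, from GENCODE M21 transcripts on mm10 unless stated. Psmd4 was the only one of the 40 members with enough reads that had a second annotated isoform in use. Its 2 main isoforms differ by 9 coding bases at the end of an exon, at chr3:95033909-95033917 on the minus strand, which are shown in capitals between the flanking 30 bases on each side; the second line is the same stretch of the isoform without them.
Psmd4-201: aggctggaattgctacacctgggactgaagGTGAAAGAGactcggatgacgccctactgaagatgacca
Psmd4-202: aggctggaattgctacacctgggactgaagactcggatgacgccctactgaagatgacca

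Nearly all reads of Psmc2, an ATPase of the 19S ring, were placed on a model that lacks the first annotated exon. The bases before the first base of that model's first exon, chr5:21786497-21786649 on the plus strand, are intron in the annotation and are shown as RefSeq gives them (GRCm38.p6), with the AG of the annotated acceptor in capitals.
Psmc2 before exon 2: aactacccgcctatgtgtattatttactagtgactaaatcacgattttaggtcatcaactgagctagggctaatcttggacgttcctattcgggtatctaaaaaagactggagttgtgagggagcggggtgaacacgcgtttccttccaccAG

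Unannotated splicing found in both libraries removed the following coding stretches, shown in capitals with neighbouring bases of the spliced transcript in lower case where the stretch is part of an exon. The Psmd9 exon is at chr5:123234594-123234696 (plus strand), the Psmd5 exon at chr2:34866893-34867037 (minus), the Psmc3 bases at chr2:91054575-91054578 (plus) and the Psmd8 bases at chr7:29177198-29177231 (minus).
Psmd9 exon 2: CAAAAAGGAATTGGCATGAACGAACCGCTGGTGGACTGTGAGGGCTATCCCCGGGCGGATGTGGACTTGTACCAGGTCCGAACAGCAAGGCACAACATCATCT
Psmd5 exon 2: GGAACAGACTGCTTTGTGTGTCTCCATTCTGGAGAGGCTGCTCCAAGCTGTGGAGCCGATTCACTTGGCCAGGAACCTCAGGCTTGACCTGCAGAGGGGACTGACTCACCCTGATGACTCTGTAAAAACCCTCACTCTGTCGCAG
Psmc3 exon 2 start: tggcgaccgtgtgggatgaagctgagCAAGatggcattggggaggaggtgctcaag
Psmd8 exon 4 start: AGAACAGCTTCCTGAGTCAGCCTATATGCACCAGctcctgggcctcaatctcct

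Psmg4, a chaperone of 20S assembly, had reads of an isoform with a 76-base coding exon at chr13:34166061-34166136 (plus strand) and of one without it, and the exon is given here in full.
Psmg4-202 cassette exon: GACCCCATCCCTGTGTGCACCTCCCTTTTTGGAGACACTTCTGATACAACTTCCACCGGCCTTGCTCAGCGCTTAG

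The 14 standard subunits of the 20S core, which are present in equal number in the particle, summed to 2711 and 3290 CPM in replicates 1 and 2. Their levels differed by 3.63-fold in replicate 1, where Psma7 was highest, and by 6.08-fold in replicate 2, where Psmb6 was highest; Psmb7 was lowest in both. Within the alpha ring, Psma7 was highest, with 309 and 397 CPM in replicates 1 and 2, and Psma4 lowest, with 119 and 107 CPM. The ring as a whole summed to 1530 and 1500 CPM. Of the beta subunits without a proteolytic site, Psmb1 was highest, with 224 and 356 CPM, and Psmb4 lowest, with 101 and 103 CPM. Psma8, the alpha subunit of the germ-cell proteasome, had 0 reads and 1 read; taking a count of 0 to allow up to 3 reads, the limit in replicate 1 is 3.23 CPM. Of 3 germ-cell markers, Ddx4 had 1 read in replicate 1, and Sycp3 and Dazl had none in either library.

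The standard catalytic subunits differed in level. Psmb6 (chr11:70525367-70527858), which carries the caspase-like activity, had 225 CPM in replicate 1 and 499 CPM in replicate 2. Psmb5 (chr14:54614119-54618022), which carries the chymotrypsin-like activity, had 228 and 305 CPM. Psmb7 (chr2:38588036-38644087), which carries the trypsin-like activity, had 85.1 and 82.1 CPM, below the other 2 in both libraries with intervals that did not overlap theirs. In replicate 1 the intervals of Psmb5 and Psmb6 overlapped, so their order there was not resolved at this depth.

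Immunoproteasome subunits were below their standard counterparts in both libraries. Psmb8 (chr17:34197721-34201454), the counterpart of Psmb5, had 36.6 CPM in replicate 1 and 65.2 CPM in replicate 2. Psmb10 (chr8:105935735-105938444), the counterpart of Psmb7, had 25.9 and 49.9 CPM. Psmb9 (chr17:34181987-34187764), the counterpart of Psmb6, had 7.54 and 22.2 CPM, from 7 and 29 reads. All 3 were higher in replicate 2. Of the reads of each pair, the immunoproteasome subunit took 3.24% (Clopper-Pearson 95% interval 1.31% to 6.56%) and 4.26% (2.87% to 6.07%) for Psmb9 with Psmb6. For Psmb8 with Psmb5 it took 13.8% (9.77% to 18.8%) and 17.6% (14.3% to 21.3%). These values count Psmb8 reads on single-exon models inside the gene, 2 of 34 in replicate 1 and 27 of 85 in replicate 2. The share was largest for Psmb10 with Psmb7, at 23.3% (15.5% to 32.7%) and 37.8% (30.5% to 45.5%).

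**Figure D2:**
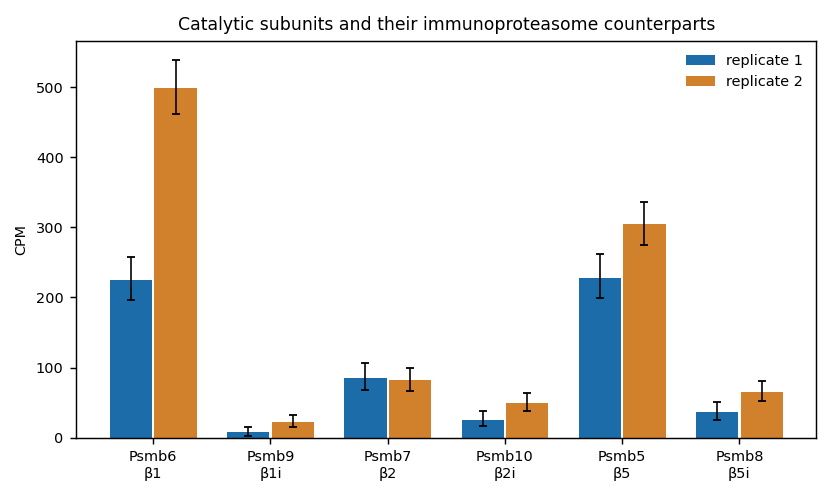
CPM of the catalytic subunits and of the immunoproteasome subunit that can take each one's place, as bars for the 2 replicates with exact 95% Poisson intervals. Each immunoproteasome subunit lies below its standard counterpart in both replicates, and the gap is narrowest for Psmb10 and Psmb7.

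The 17 subunits of the 19S particle summed to 4544 and 3386 CPM in replicates 1 and 2, and 16 of them reached 100 CPM in both. In the ATPase ring, Psmc3 was highest, with 357 and 305 CPM, and Psmc6 lowest, with 168 and 117 CPM. The base also holds Psmd4, with 432 and 377 CPM, Psmd2, a scaffold that binds ubiquitin shuttles, with 447 and 290 CPM, and Psmd1, another scaffold, with 153 and 120 CPM. In the lid, Psmd8 was highest, with 288 and 277 CPM. Psmd14, the deubiquitinase of the lid, had the lowest mean, with 134 and 87.5 CPM, although Psmd11 was lower in replicate 1, with 125 CPM. Mean levels of 19S subunits differed by 3.66-fold from lowest to highest.

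Transcripts of proteins that act on the particle without being part of it were mostly less abundant. Psme1 and Psme2 form the interferon-inducible PA28 activator and had 138 and 177 CPM and 165 and 240 CPM. The nuclear activator Psme3 had 64.7 and 29.2 CPM. Psme4, the PA200 activator, was the lowest of the 4, with 7.54 and 9.21 CPM, and none of its 7 and 12 reads matched an annotated transcript in full. Psmf1, an inhibitor of the core, had 59.3 and 45.3 CPM. The assembly chaperones of the 19S base ranged from Psmd10, with 36.6 and 26.9 CPM, to Psmd5, with 94.8 and 73.7 CPM. By mean level, those of the 20S core ranged from Psmg3, with 10.8 and 20.7 CPM, to Psmg1, with 62.5 and 46.0 CPM.

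The replicates were compared gene by gene to show how far these levels hold. Of the 46 members tested, 11 were higher in replicate 2, 13 lower and 22 neither (two-sided Fisher's exact test, adjusted over 11650 genes by Benjamini-Hochberg, threshold 0.05). Over all genes tested, 13.0% were higher and 22.2% lower. These include many genes with few reads. Among genes with 50 or more reads, 18.5% were higher and 34.3% lower, beside 11 higher and 13 lower of 43 members. The median log2 ratio of members was −0.17, against −0.25 over all genes tested. With TMM scaling, which moved every log2 ratio up by 0.26, 14 members were higher and 7 lower, and of all genes 17.0% were higher and 11.4% lower. A change of 2-fold or more was reached by 3 of the higher and 2 of the lower members, against 9.67% and 10.4% of all genes tested.

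The libraries differ in the length of the models that reads were placed on: the mean length of a read's model was 2329 nt in replicate 1 and 1876 nt in replicate 2. The lengths of the reads themselves were not measured. The length used for a gene is that of its annotated transcript with most reads, or else of its model with most reads. An annotated transcript can be longer than the reads placed on it. Among all genes the median log2 ratio fell from 1.51 in the shortest of 20 length bins to −0.49 in the bins between 2956 and 5119 nt. When each gene was tested against the ratio that its length bin gives, 8 members were higher and 10 lower, against 13.2% and 9.92% of all genes.

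**Figure D3:**
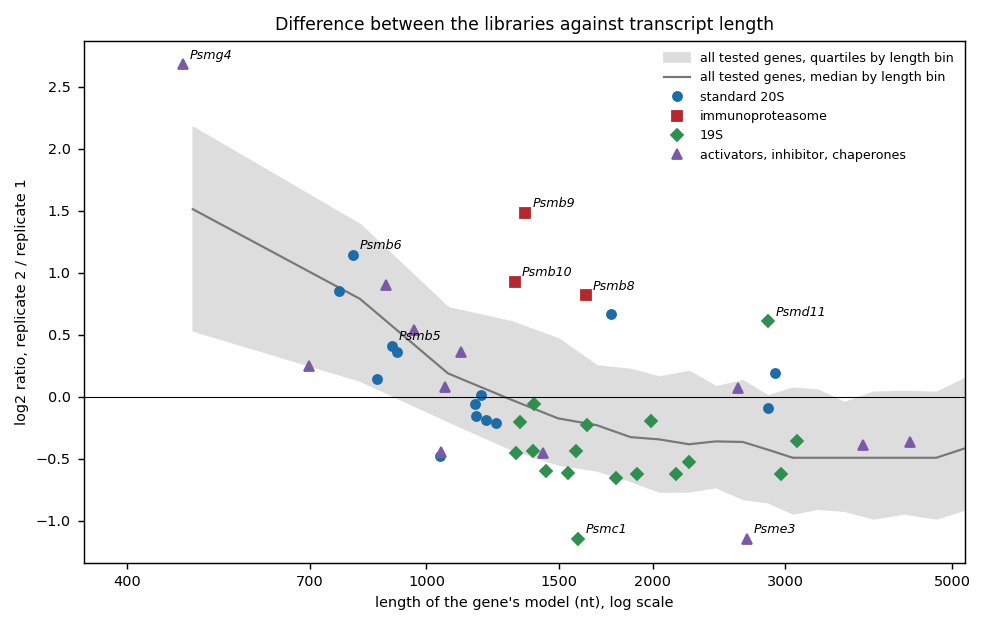
Log2 ratio of replicate 2 to replicate 1 against the length of the gene's model, for 46 proteasome genes. The line and band are the median and quartiles of all tested genes in 20 bins of length. Standard 20S genes (circles) are mostly short and lie on both sides of the line, 4 above it and 4 below it past the test against length. The 3 immunoproteasome genes (squares) lie above the band, and most 19S genes (diamonds) lie below 0. The length used for Psme4 is that of an incomplete model.

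Among standard 20S genes, 5 were higher in replicate 2, 1 lower and 8 neither, and against the length expectation 4 were higher (Psma2, Psma3, Psmb1 and Psmb6) and 4 lower (Psma6, Psma7, Psmb2 and Psmb5). With TMM scaling 7 were higher and 0 lower. Psmb6 had the largest difference of them, a log2 ratio of 1.15 (adjusted p = 1.28e-24, Fisher's exact test), and it was also higher than its length gives, by 0.36. Psmb1 had a log2 ratio of 0.67 (adjusted p = 1.82e-07, Fisher's exact test) and was higher by 0.89 against its length. Psmb3, with 135 and 244 CPM, had a log2 ratio of 0.85 (adjusted p = 7.51e-08, Fisher's exact test), but only 0.06 against its length. Psmb5 and Psma7 were higher by 0.41 and 0.36 in log2 ratio and turned to −0.38 and −0.43, both past the test, against their length. Their models, of 899 and 914 nt, lie near the upper edge of the bin from 677 to 940 nt. That bin expects 0.79 and the next longer bin 0.19, and whether the turn holds with other bin edges was not tested. Psma6, with 236 and 170 CPM, was the only lower member of the core, at −0.48, and did not pass with TMM scaling (adjusted p = 0.268, exact binomial test). Psmb7 was at −0.05 and did not pass the test.

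All 3 immunoproteasome genes were higher in replicate 2, with log2 ratios of 0.82 for Psmb8 (adjusted p = 0.0141), 0.93 for Psmb10 (adjusted p = 0.0176) and 1.49 for Psmb9 (adjusted p = 0.0218; Fisher's exact test, Benjamini-Hochberg). They were higher against the length expectation too, by 1.05, 0.95 and 1.51. Psmb8 carried 2 and 27 reads on single-exon models inside the gene, and without such models its log2 ratio was 0.43 (adjusted p = 0.336, Fisher's exact test). On annotated transcripts alone, Psmb9 was the only one of the 3 that passed. The 8 immune markers summed to 202 and 460 CPM in replicates 1 and 2. Of them Cd74, H2-Ab1, Lyz2 and Cd52 were higher in replicate 2, none was lower, and Ptprc, the marker shared by white blood cells, had 1 read and 7 reads. Against their length Cd74, H2-Ab1 and Lyz2 stayed higher, and Cd52, with 1 read and 20 reads, did not pass. The part of immune cells in the difference was not tested. Psme2, of the PA28 activator, was higher by 0.54 (adjusted p = 0.000666, Fisher's exact test) and by 0.35 against its length, which did not pass. Psme1 had a log2 ratio of 0.36 that did not pass the test and passed with TMM scaling.

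Genes of the 19S particle were mostly lower in replicate 2: 11 of 17 were lower, 1 was higher and 5 were neither. All of them were well read, and among all genes with 50 or more reads 34.3% were lower and 18.5% higher. With TMM scaling 6 of the 17 were lower, beside 11.4% of all genes tested. Against the length expectation 5 of the 17 were lower, beside 9.92% of all genes. The shares with TMM scaling and against length include genes with fewer reads. They were not computed at 50 or more reads, so they are not like for like. The ATPase ring had 5 of its 6 genes lower, 4 of 6 against length and 3 of 6 with TMM scaling. Psmc1 had 331 CPM in replicate 1 and 150 CPM in replicate 2, a log2 ratio of −1.14 (adjusted p = 3.9e-17, Fisher's exact test), and was lower by 0.97 against its length. Psmc2, with 278 and 176 CPM, was at −0.66 and Psmc4, with 335 and 221 CPM, at −0.60. Both were at −0.43 against length and passed that test as well. Psmc3 was the member of the ring that did not pass, at −0.23.

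Outside the ATPase ring, Psmd2 was at −0.62 (adjusted p = 1.67e-08, Fisher's exact test), as were the lid scaffolds Psmd3, with 249 and 162 CPM, and Psmd12, with 287 and 186 CPM. Against their length these 3 were at −0.13, −0.24 and −0.30 and did not pass. The lid subunits Psmd6, Psmd7 and Psmd14 were also lower, at −0.44, −0.44 and −0.61, and none of them passed with TMM scaling. Against their length they were at −0.42, −0.26 and −0.44, of which Psmd6 passed. Psmd11, another lid scaffold, went the other way, with 125 and 191 CPM and a log2 ratio of 0.61 (adjusted p = 0.000742, Fisher's exact test), or 1.03 against its length. Markers of the adrenal cortex and medulla were lower in replicate 2 in 3 of 4 and 4 of 4 genes, and markers of liver higher in 4 of 4. Against length, the cortex marker Star was at −0.07 and did not pass, and Cyp11a1 was higher by 0.35. Cyp11b1, Hsd3b1 and the medulla markers stayed lower against length, and the liver markers stayed higher. The part of these tissues in the 19S and 20S differences was not tested.

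Of the remaining members, 2 had differences of more than 2-fold. The nuclear activator Psme3 was at −1.14 (60 and 38 reads, adjusted p = 0.000727, Fisher's exact test) and at −0.78 against its length. Psmg4, with 5.39 and 37.6 CPM from 5 and 49 reads, was at 2.68 (adjusted p = 2.38e-06, Fisher's exact test), and at 1.17 against its length, which did not pass. Its annotated transcripts of 474 and 555 nt are among the shortest of the set. Psmf1, the 3 chaperones of the 19S base and Psmg1, Psmg2 and Psmg3 did not pass the test.

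Most proteasome genes were read as 1 isoform. Of the 40 members with at least 20 reads of annotated transcripts in each library, 36 had a leading isoform above 90% in both, and in replicate 2 the median share of the leading isoform was 99.6%. These values are for members only, and the share of all genes above 90% is not given. A second isoform at 20% or more in both libraries was seen in 1 of these 40, or 2.50%, against 10.4% of 4781 genes. That gene was Psmd4. Psmd4-202 took 197 of 350 annotated reads in replicate 1, or 56.3% (Clopper-Pearson 95% interval 50.9% to 61.6%), and 228 of 428 in replicate 2, or 53.3% (48.4% to 58.1%). Psmd4-201, which keeps the 9 bases printed above, took 149 and 198 reads, or 42.6% and 46.3%. The coding lengths of the 2 isoforms in the annotation, 1137 and 1128 bases, differ by the same 9 bases, a multiple of 3.

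None of the 25 members with 2 or more isoforms passed the test of isoform use between libraries (two-sided Fisher's exact test over 3040 genes, Benjamini-Hochberg), in which 2.17% of all genes passed. At an unadjusted p under 0.05 there was 1, Psmb6. Psmb6-201, the full-length coding transcript, took 171 of 193 annotated reads in replicate 1, or 88.6%, and 475 of 609 in replicate 2, or 78.0% (adjusted p = 0.0517, Fisher's exact test). All other reads but 1 were of Psmb6-202, which the annotation classes as a retained intron and which holds 2 exons of the 3′ part of the gene, with 22 and 133 reads. When only genes with 50 or more reads were tested, Psmb6 passed (adjusted p = 0.0443, Fisher's exact test). Psmd11 kept a minor isoform, Psmd11-214, with 11 and 28 reads and the same coding length as Psmd11-201, 1266 bases. Psma3 had 10 and 18 reads of Psma3-201, which the annotation marks for nonsense-mediated decay. Psmg4 had too few reads for the test: Psmg4-202, with the 76-base exon printed above, had 4 and 22 reads and Psmg4-201, without it, 1 and 27.

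Reads of proteasome genes matched annotated transcripts in full more often than reads of all genes. A full match was found for 87.8% of members' reads in replicate 1 and 84.3% in replicate 2, against 79.8% and 73.9% over all genes. An incomplete splice match (ISM), a model that holds part of an annotated chain of introns, took 7.59% and 11.3% of members' reads. The full-match share was smaller in replicate 2 for 9 of 42 members tested and larger for 0 (two-sided Fisher's exact test, Benjamini-Hochberg), against 19.7% and 0.568% of 6342 genes. At an unadjusted p under 0.05, 1 member was larger, Psma2. The share was lower in replicate 2 in 33 of 42 members and in 4731 of the 6342 genes. The 9 were Psma1, Psma4, Psma7, Psmb8, Psmc3, Psmd1, Psmd8, Psmd13 and Psmg2.

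**Figure D4:**
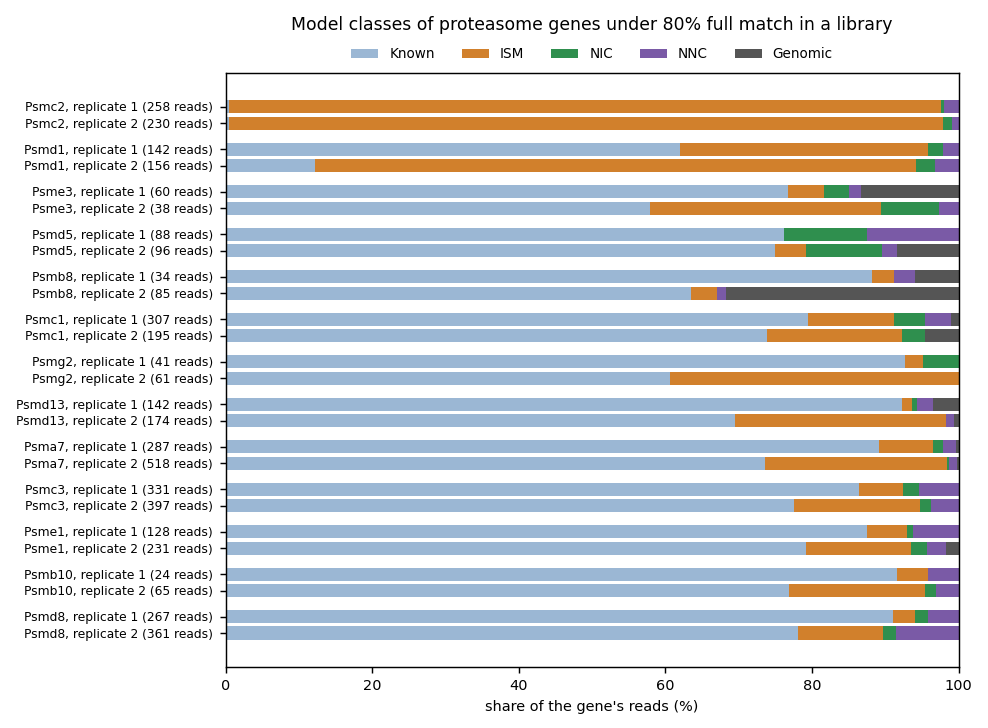
Share of reads by class of transcript model in each replicate, for the 13 proteasome genes with 10 or more reads in both replicates and under 80% full match in at least 1. Known is a full match to an annotated transcript, ISM an incomplete splice match, NIC a new combination of annotated splice sites, NNC a chain with an unannotated splice site and Genomic a model inside the gene that matches no splice chain. Psmc2 is almost all ISM in both replicates, and Psmd1 is 62.0% Known in replicate 1 and 12.2% in replicate 2.

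Psmc2 had 1 full-match read in each library of 258 and 230. The ISM model without exon 1 took 250 reads, or 96.9%, and 217, or 94.3%. It starts at position 21786650, the first base of annotated exon 2, and keeps the other 11 introns; the ends are those of the deposited model and not of each read. Exon 1, chr5:21785283-21785517, holds no coding sequence in the annotation, whose start codon lies in exon 2 at 21786689. RefSeq lists a second start of Psmc2 at 21786747, which is 97 bases into exon 2 and 58 bases after that start codon. The next ATG in the same frame is 126 bases after the annotated one, at 21786815. Because of this model, Psmc2 nearly drops out of any count that uses annotated transcripts alone.

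Psmd1 had the largest shift between libraries in full-match share. Psmd1-201, with 25 exons, had 88 of 142 reads in replicate 1, or 62.0% (Clopper-Pearson 95% interval 53.5% to 70.0%), and 19 of 156 in replicate 2, or 12.2% (7.49% to 18.4%; adjusted p = 6.96e-18, Fisher's exact test). An ISM model with the first 21 of the 24 introns, which ends inside a coding exon, had 36 reads in replicate 1, or 25.4% of the gene, and 97 in replicate 2, or 62.2%. The summed level of Psmd1 did not pass the test between replicates, while its reads on the annotated transcript were 88 and 19.

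Psma7 had an ISM model that lacks the first 3 introns, with 18 reads in replicate 1, or 6.27%, and 122 in replicate 2, or 23.6%. On annotated transcripts alone its log2 ratio between replicates was 0.19 and did not pass the test. Psmc1 had a model without its first intron, with 28 and 17 reads, or 9.12% and 8.72%, a near-equal share in both. In all, 11 members had an ISM chain with 5 or more reads in both libraries, and 10 of these chains lacked the 5′ part; Psmd1 was the exception. These counts are for members only, and no share over all genes is given beside them.

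Single-exon models inside members took 50 reads of replicate 1 and 315 of replicate 2, or 0.667% and 3.17% of members' reads. Over all genes the shares were 3.62% and 10.1%. In 14 of the 15 members with 8 or more such reads, the largest model lay within the last exon of the annotated transcript, allowing 2 bases at each end. Positions were read for members only, so this count has no share over all genes beside it. Psmd13, a lid subunit, had 5 and 43 such reads, and its full-match share was 92.3% and 69.5%. Psmc3 had 8 and 45, Psmg2, a chaperone of the core, 0 and 21, and Psmb1 0 and 21.

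Unannotated splice chains with 5 or more reads in both libraries were found in 4 members, Psmd9, Psmd5, Psmc3 and Psmd8. Chains of this kind are given for members only, without a share over all genes. In Psmd9, a 19S assembly chaperone, 5 reads in each library skipped exon 2, of 103 bases, or 8.93% and 6.02% of the gene's reads. In Psmd5, another 19S chaperone, 8 and 7 reads skipped exon 2, of 145 bases, or 9.09% and 7.29%. Neither exon length is a multiple of 3. In the ATPase Psmc3, 6 and 5 reads used an acceptor 4 bases into exon 2, so that the removed bases, printed above, end in AG. In the lid subunit Psmd8, 10 and 23 reads, or 3.75% and 6.37%, joined exon 1 to a site 34 bases into exon 4. These reads lack exons 2 and 3 and the printed start of exon 4, which also ends in AG, 210 bases in all, a multiple of 3.

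**Figure D5:**
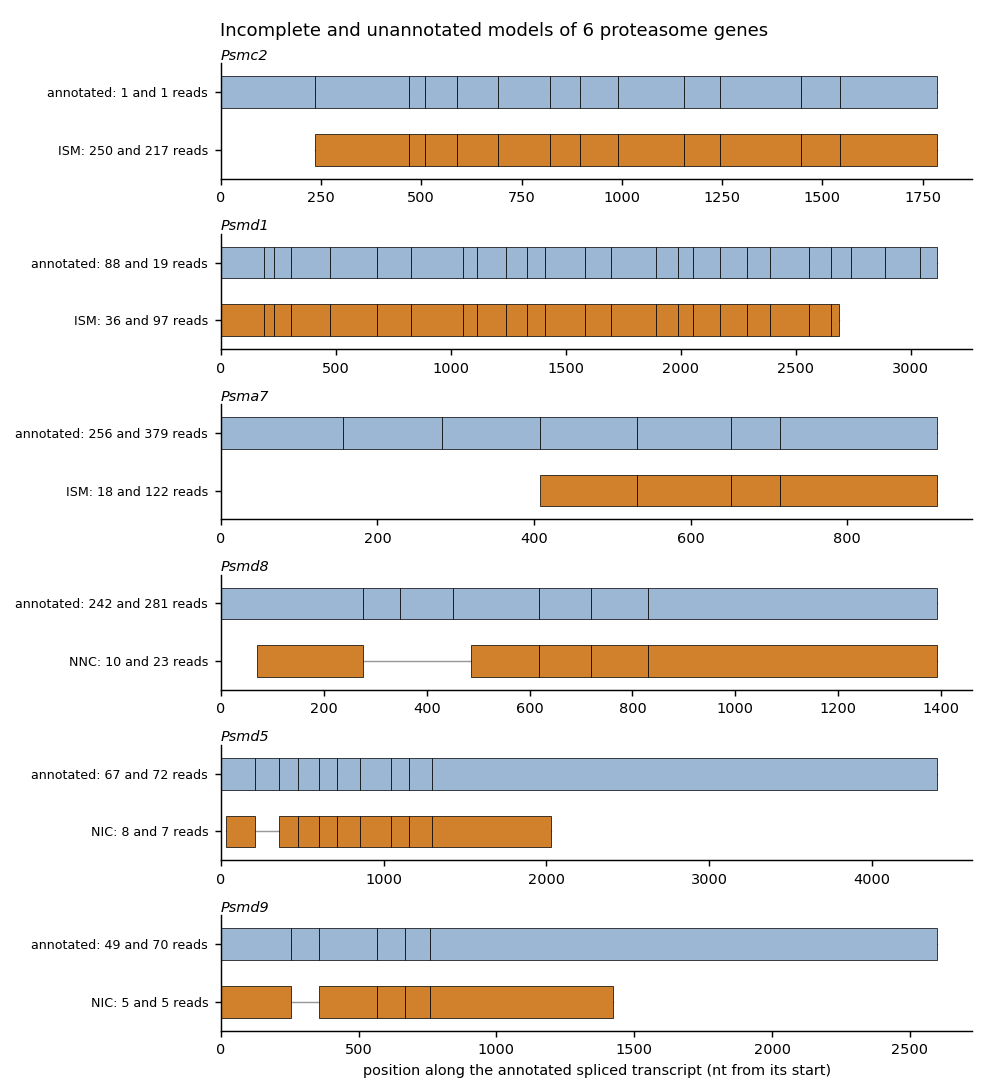
Annotated transcript (blue) and the main incomplete or unannotated model (orange) of 6 proteasome genes, as exons to scale along the annotated spliced transcript, with the reads of replicates 1 and 2 beside each. Thin lines join exons across a skipped stretch. Psmc2 lacks exon 1 and Psma7 the first exons, Psmd1 ends early, and Psmd8, Psmd5 and Psmd9 lack internal coding stretches. Model ends are those of the deposited models.

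Some members have near-identical copies or overlapping neighbours. Sequences at least 90% identical over at least 50% of the main transcript were found in 21 other genes for 11 members, and these held 0 reads in replicate 1 and 22 in replicate 2. Of these 22, Psme2b, 99.4% identical to Psme2 over the aligned 83.0%, had 9, and a copy of Psmb5 had 6. Whether some reads of Psme2 or Psmb5 belong to a copy was not tested. AW209491 overlaps Psma2 on the same strand and had 44 and 23 reads of its own. Hpd, on the strand opposite to Psmd9, had 123 and 318.

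Genes that work with the proteasome but are not subunits by name were read as well. Of a list of 25 such genes, 24 had reads. In replicate 2, 1 was higher, 11 were lower and 12 were neither. In the same test 13.0% of all genes were higher and 22.2% lower. With TMM scaling 4 of the 24 were higher and 7 lower, and against the length expectation 5 and 4. The most abundant was Vcp, the unfoldase that extracts ubiquitinated proteins, with 621 and 452 CPM and a log2 ratio of −0.46, which was 0.03 against its length and did not pass there or with TMM scaling. Zfand5, a ubiquitin-binding protein that stimulates the proteasome, had 458 and 447 CPM and did not pass the test, but was higher by 0.27 against its length (adjusted p = 0.0168, exact binomial test). Nfe2l1, the transcription factor that induces proteasome genes when activity is short, had 261 and 219 CPM and did not pass the test. On annotated models alone it was lower, at −0.85 (adjusted p = 0.000271, Fisher's exact test).

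Sem1, a small subunit of the lid that the name rule does not include, was the higher partner gene, with 102 and 301 CPM and a log2 ratio of 1.55 (adjusted p = 1.78e-23, Fisher's exact test). Among the lower ones, Ubqln4, a shuttle for ubiquitinated proteins, had 161 and 46.8 CPM and a log2 ratio of −1.77 (adjusted p = 2.65e-16, Fisher's exact test). The Vcp cofactors Nploc4, with 65.7 and 22.2 CPM, and Ufd1, with 130 and 76.7 CPM, were at −1.55 and −0.76. The shuttle Ubqln1, with 125 and 62.9 CPM, was at −0.99. Against length Nploc4 passed, and Ufd1 and Ubqln1, at −0.42 and −0.50, did not. Adrm1, a ubiquitin receptor of the 19S base, had 274 and 171 CPM, at −0.68, and the deubiquitinase Usp14 had 109 and 71.4 CPM, at −0.61. The ligase Ube3c, the protease Ddi2 and the stress-response factor Nfe2l2 were at −0.92, −0.78 and −0.80. Usp14, Ube3c, Ddi2 and Nfe2l2 did not pass against their length, where they were at −0.12, −0.43, −0.47 and −0.44, and of these 4 Nfe2l2 passed with TMM scaling.

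Nfe2l1 and Nfe2l2 bind antioxidant response elements. The core of that element, TGACNNNGC on either strand, was in the RefSeq promoter window (250 bases before to 50 after the start, GRCm38.p6) of 6 of the 39 members with a window, or 15.4%, against 14.0% of 27025 genes. The members were Psmb5, Psmb6, Psmc6, Psmd9, Psmd12 and Psme4. Their share was near that of all promoters.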

How the data were processed

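The authors deposited, for each library, unnormalized counts of long reads assigned to transcript models; per the file headers they also give exons and spliced length, and the deposited annotations positions in bases on mm10 (other unit). Models carry TALON classes; aligner and tool versions: not given in the sources used here.

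Counts were summed over all models of a gene and divided by reads on annotated genes. Intervals are exact at 95%. Genes reaching 10 reads in the 2 libraries together were compared by two-sided Fisher's exact tests with Benjamini-Hochberg adjustment, and 0.5 reads were added before log2 ratios. Alternatives used edgeR 4.0.16 TMM factors, DESeq2 1.42.0 size factors, and the median ratio of 20 bins of model length (exact binomial test). Isoform shares and full-match shares needed 20 reads in each library. Scripts used Python 3.11.15, numpy 2.4.6, pandas 2.3.3, scipy 1.17.1, matplotlib 3.10.9 and R 4.3.3, and were tested on simulated data. Sequences came from GENCODE M21 and RefSeq.

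Members and lists were chosen with earlier results of these data known. Values are given for catalytic subunits, the highest and lowest member of each part, members with a second isoform or an unannotated chain, the 5 largest ratios in each direction, and partner genes past the test or among the 3 highest; other members are named where a count needs them. One partner gene and one sequence are not reported here.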

Additional observations from a re-analysis of the deposited data

How the results depend on the processing

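No paired analysis was possible because both libraries belong to 1 group. On annotated models alone the summed level was 8788 CPM; leaving out 1 library gave 7630 and 8074 CPM. The 11 higher members became 3 at 2-fold or more, and the 13 lower became 7 with TMM, 7 with DESeq2 factors and 2 at 2-fold or more. Partner genes went from 1 higher to 4 (TMM), 3 (DESeq2) and 5 (length), and from 11 lower to 7, 7 and 4. Against length, Psma7 turned to −0.43, Psmb5 to −0.38 and Vcp to 0.032. Psma7 and Psmb5 lie near the edge of a length bin, and other bin edges were not tried. The expected ratio of that alternative is above 0 for short models and below 0 for long ones. Isoform use had 0 calls, 1 with a minimum of 50 reads (Psmb6) and 3 over all multi-exon models (Psmd1, Psma7, Psmd8). A second isoform at 10% was in use in 3 members (Psmd4, Psmd11, Psmb6), and the share over all genes at 10% is not given. Of the settings run for single genes, 205 kept the call, 44 lost it and 3 turned. Psma8, Psmb9, Psmg3, Psmg4 and Psme4 rest on 10 or fewer reads in replicate 1.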
